A study of Mus musculus with 8 samples.

Results

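Microglia-only H4K12la regions were genome intervals that held a deposited peak in each of 4 microglia libraries and in none of 4 total cell libraries of the mouse brain. Peaks of all 8 lists were merged where they overlapped by at least 1 base, which gave 73400 merged regions, and 3307 of them met this rule. These were 4.51% of all merged regions, and the opposite rule, a peak in all 4 total cell lists and in no microglia list, was met by 984 regions or 1.34%. The regions were chosen by the presence and absence of the peaks themselves, so their presence in microglia and absence from total cells is a description and was not tested.

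H4K12la is lactylation of lysine 12 of histone H4, an acyl mark whose lactyl group derives from lactate, the end product of glycolysis. It was mapped by CUT&Tag, in which an antibody tethers a Tn5 transposase to chromatin so that the DNA beside the mark is cut, tagged and sequenced. Microglia are the resident macrophages of the brain. They take up debris, prune synapses and gather around amyloid plaques, and their identity depends on lineage factors such as PU.1 and on signals through the CSF1 and TGF-beta receptors. Acyl marks on histone tails are commonly found at promoters and enhancers of expressed genes, and enhancers often lie in introns or between genes.

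The 4 groups, each with 2 libraries, were 5XFAD microglia, WT microglia, 5XFAD total cells and WT total cells. 5XFAD is a transgenic Alzheimer disease model in which mutated human transgenes are driven by the neuronal Thy1 promoter, so the transgenes are directed to neurons. Brains without cerebellum were dissociated after perfusion, myelin debris was removed, and microglia were taken with CD11b-coated beads. CD11b is also carried by monocytes, neutrophils and other macrophages. Age, sex, strain background and the number of animals per library are not given in the labels, and whether libraries of a group came from separate mice is not stated. Total cells are a mixture that can contain microglia, so that a mark held by few cells and a weak mark held by many cells cannot be told apart in those libraries.

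The lists of microglia held 29947 and 41783 peaks in 5XFAD and 22300 and 33500 peaks in WT. The lists of total cells held 32967 and 22807 peaks in 5XFAD and 25271 and 22543 peaks in WT. Microglia-only regions contained 11.6% and 8.09% of the peaks of the 5XFAD microglia lists and 15.4% and 10.2% of those of the WT microglia lists. The smallest score was 20 in every list, so weaker signal is not seen, and read depth is unknown. A peak's strength is given here as the percentile of its deposited score within its own list, from 0 to 100, and its extent as its width in bp. The percentile of a region in a library is that of its highest peak.

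A few promoters that lie under microglia-only regions show the sequence beneath the mark. They are the RefSeq windows of GRCm38.p6 from 250 bases before to 50 bases after an annotated start, written 5′ to 3′ on the strand of the gene. They were taken from lists of microglial, phagocyte signalling and lineage factor genes, and capitals mark letters of the searched motifs on either strand. Each printed window holds a searched motif, so those printed do not stand for all. Other windows of list genes, such as those of Syk, Fcgr1 and Hcst and a second one of Ptprc, hold none. Ctss encodes the lysosomal protease cathepsin S, Cd300lf an inhibitory lipid receptor of myeloid cells, Was the actin regulator WASP of blood cells, Elf1 an ETS factor of blood cells, and Ptprc the leukocyte phosphatase CD45.
Ctss, chr3:95526536-95526835, plus strand: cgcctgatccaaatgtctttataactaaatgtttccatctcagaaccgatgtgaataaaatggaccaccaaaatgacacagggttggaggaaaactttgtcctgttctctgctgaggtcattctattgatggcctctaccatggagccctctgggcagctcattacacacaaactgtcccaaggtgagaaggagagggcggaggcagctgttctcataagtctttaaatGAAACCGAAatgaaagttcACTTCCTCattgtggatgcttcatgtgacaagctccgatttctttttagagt
Cd300lf, chr11:115133943-115134242, minus strand: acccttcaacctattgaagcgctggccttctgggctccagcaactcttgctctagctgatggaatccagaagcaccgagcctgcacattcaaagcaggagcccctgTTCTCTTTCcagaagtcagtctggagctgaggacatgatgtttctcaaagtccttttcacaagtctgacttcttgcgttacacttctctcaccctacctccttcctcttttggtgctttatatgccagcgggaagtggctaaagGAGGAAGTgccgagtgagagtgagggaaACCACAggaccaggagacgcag
Was, chrX:8090442-8090741, minus strand: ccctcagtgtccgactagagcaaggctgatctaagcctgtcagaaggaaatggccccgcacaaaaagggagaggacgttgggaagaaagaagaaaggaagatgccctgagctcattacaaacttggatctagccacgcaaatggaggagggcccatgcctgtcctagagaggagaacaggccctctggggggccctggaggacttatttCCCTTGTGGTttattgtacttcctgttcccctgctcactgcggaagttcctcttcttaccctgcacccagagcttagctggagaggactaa
Elf1, chr14:79515424-79515723, plus strand: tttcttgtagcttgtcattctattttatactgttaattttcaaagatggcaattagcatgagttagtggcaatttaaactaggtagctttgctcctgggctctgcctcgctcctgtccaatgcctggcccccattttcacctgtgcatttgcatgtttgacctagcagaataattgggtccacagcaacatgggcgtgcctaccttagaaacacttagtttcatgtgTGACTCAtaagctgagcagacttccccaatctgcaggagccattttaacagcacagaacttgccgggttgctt
Ptprc, chr1:138175077-138175376, minus strand: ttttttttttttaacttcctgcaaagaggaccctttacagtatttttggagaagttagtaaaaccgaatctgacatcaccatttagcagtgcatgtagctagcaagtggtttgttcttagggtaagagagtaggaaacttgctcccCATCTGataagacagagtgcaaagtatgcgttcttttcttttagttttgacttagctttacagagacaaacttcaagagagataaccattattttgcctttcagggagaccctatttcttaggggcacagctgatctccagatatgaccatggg
Ctss holds the letters searched for PU.1, the product of Spi1, close to the start site, with the letters searched for IRF factors just before them. Cd300lf holds letters for IRF factors, PU.1 and RUNX factors, in that order. In Was the letters for CTCF and RUNX overlap. Elf1 holds an AP-1 match, and this window of Ptprc holds the E-box letters and none of those for the myeloid factors. A match of letters is a description and does not show that a factor binds.

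The regions were mostly simple in make-up. Their median length was 1093 bp, with quartiles of 834 and 1467.5 bp and a range of 341 to 4516 bp, and 2964 of them (89.6%) held exactly 1 peak from each microglia list. The median region was 1353 bp among the 5288 regions with a peak in all 8 lists, 556.5 bp among the 984 total-cell-only regions and 550 bp over all merged regions. Median peak widths of the whole lists were 629 and 735 bp in 5XFAD and 580 and 647 bp in WT microglia. In total cells they were 366 and 312 bp in 5XFAD and 318 and 287 bp in WT. The length of the regions was not told apart from the peak width of the lists. Of the 16732 regions with a peak in all 4 microglia lists, 19.8% had no total cell peak. Regions with a microglia peak and no total cell peak numbered 22955, and 14.4% of these were in all 4 microglia lists, whereas 4.02% of the 24452 regions with a total cell peak and no microglia peak were in all 4 total cell lists. The plot of region counts by number of lists shows that counts were graded around the members, with no gap between them and their neighbours.

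**Figure D1:**
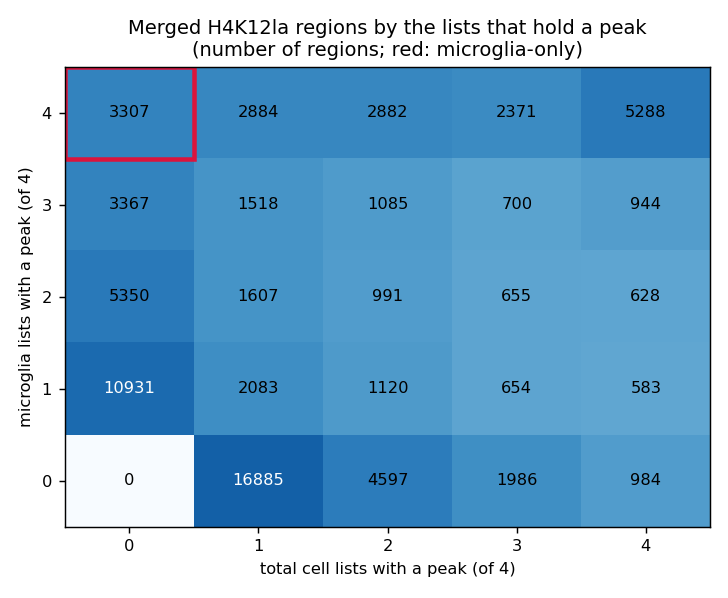
Number of merged regions by the number of microglia lists (vertical axis, 0 to 4) and of total cell lists (horizontal axis, 0 to 4) that hold a peak. The microglia-only cell, outlined in red, holds 3307 regions, beside 2884 with 1 total cell list added and 3367 with 1 microglia list missing; colour depth follows the logarithm of the count.

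Each kind of region just outside the rule was about as numerous as the members. A further 3367 regions were in 3 microglia lists and no total cell list, and 2268 of these (67.4%) lacked a peak in microglia WT 1, the shortest microglia list. Another 2884 were in all 4 microglia lists and 1 total cell list, and for 1864 of these (64.6%) that list was total cells 5XFAD 1, the longest of the total cell lists. In 68 members (2.06%) the weakest microglia peak scored at most 25, close to the lowest deposited value, and in 94 of the regions with 1 total cell list (3.26%) the total cell peak did. The mean percentile over the 4 microglia libraries had a median of 52.4 among members, 35.8 among regions missing 1 microglia list, 62.0 among those with 1 total cell list and 78.5 among regions of all 8 lists.

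Choosing the regions without a given list and then looking in that list gives values the choice did not use. This check was added after the lists had been examined. Of regions chosen without a microglia list, 80.7% held a peak in 5XFAD 1, 98.2% in 5XFAD 2, 59.4% in WT 1 and 93.2% in WT 2. Among regions in 1 or 2 of the other microglia lists and in no total cell list, the same shares were 31.2%, 63.5%, 11.2% and 34.8%. Of regions chosen without a total cell list, 36.1% held a peak in total cells 5XFAD 1, 14.7% in 5XFAD 2, 7.18% in WT 1 and 5.70% in WT 2. Among regions of all 4 microglia lists and at least 1 other total cell list, those shares were 87.3%, 71.7%, 57.7% and 53.7%. These comparison regions were themselves picked by their peaks in the other lists. Among all regions not so chosen, the shares were 35.9%, 50.3%, 26.1% and 39.8% in the microglia lists, in the same order. In the total cell lists they were 38.5%, 27.9%, 29.7% and 26.6%, so that for 5XFAD 1 the 36.1% of the chosen regions was close to the 38.5% of all others. Among the total cell lists, 5XFAD 1, the longest, held the largest share of the regions chosen without it.

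Position relative to genes was not used by the rule, and the values for microglia-only regions and shared ones lay far apart. Of the members, 18.2% touched a window of 2 kb on either side of an annotated end of a protein-coding gene, 54.3% lay elsewhere in a gene body, and 27.5% lay more than 2 kb from any protein-coding gene. Of the regions of all 8 lists, 58.0% touched a gene end, 30.6% lay elsewhere in a body and 11.4% lay away from genes. Total-cell-only regions were closer to the members, with 20.7% at gene ends, 57.9% elsewhere in bodies and 21.3% away from genes, as were all merged regions, with 23.7%, 55.9% and 20.4%.

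**Figure D2:**
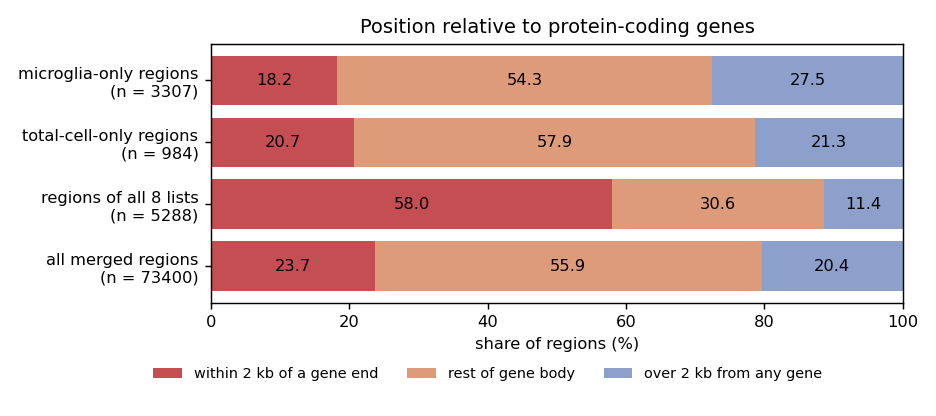
Share of regions (percent, horizontal axis) within 2 kb of an end of a protein-coding gene, elsewhere in a gene body, or more than 2 kb from any such gene, for 4 sets of regions. Gene ends take 18.2% of microglia-only regions and 58.0% of regions with a peak in all 8 lists.

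The same comparison was made within each microglia library, between peaks in microglia-only regions and all other peaks of the same list. Peaks at gene ends made up 16.9% and 17.6% of member peaks in the 5XFAD libraries and 16.6% and 17.5% in the WT libraries. They made up 32.8% and 30.5% of the other peaks in the 5XFAD libraries and 34.7% and 31.5% in the WT libraries. The means were 17.2 ± 0.469% for member peaks and 32.4 ± 1.82% for other peaks (SD, n = 4), a difference of −15.2 points in the same direction in 4 of 4 libraries, with p = 0.125 in an exact two-sided sign-flip permutation test over libraries, the smallest p that 4 libraries allow. Peaks away from genes made up 27.8 ± 0.175% of member peaks and 18.4 ± 0.551% of other peaks, a difference of 9.38 points with the same exact permutation p = 0.125. By the rule the 4 libraries share the member regions, so their agreement and small spread do not measure replication, and the test cannot reach 0.05.

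The share at gene ends was graded with the number of total cell lists that also held the region. Among regions of all 4 microglia lists it was 18.2% with no total cell list, 20.3% with 1, 24.5% with 2, 37.8% with 3 and 58.0% with 4. Their median microglia percentile followed the same order, at 52.4, 62.0, 69.1, 71.3 and 78.5, so position and strength moved together in these sets and their parts were not told apart. Within the members strength varied little by position: the median mean percentile was 50.8 at gene ends, 52.0 elsewhere in bodies and 54.1 away from genes.

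Annotated start sites show the contrast more sharply. A 300-base promoter window was touched by 160 of 3217 members (4.97%) on the chromosomes the promoter table covers. The share was 11.2% over all merged regions, 12.8% among total-cell-only regions and 48.1% among regions of all 8 lists. The median distance from a member to the nearest listed start was 23.5 kb, and 70.5% of members lay more than 10 kb from one. The median distance was 0.944 kb for regions of all 8 lists, of which 41.6% lay that far. Over all merged regions, which include many seen in 1 library, 69.4% lay more than 10 kb from a listed start.

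Members were spread over all autosomes and chromosome X, where 88 of 1205 merged regions were members (7.30%, against 4.51% of all merged regions). On the autosomes the share ran between 3.51% and 5.19%. The sex of the mice is not given, and the share on X was not tested.

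Of 21887 protein-coding genes, 1896 (8.66%) had a microglia-only region in the body or within 2 kb of it, and 706 (3.23%) had one within 2 kb of an annotated end. These 1896 genes were long, with a median length of 44.6 kb against 17.2 kb for all protein-coding genes. Most (1464) had 1 such region, 432 had at least 2 and 59 had at least 4, and 165 members touched more than 1 gene. Of the 14 gene lists examined, the 5 of microglial identity, effector, phagocyte signalling, NADPH oxidase and lineage factor genes had shares between 30.8% and 64.7%. The lists of neuron, astrocyte, oligodendrocyte and other leukocyte markers had members at 1 gene each, too few to set their shares apart from that of all genes. These shares are descriptions, and the median length of each list is given with them because a longer gene offers more room.

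**Figure D3:**
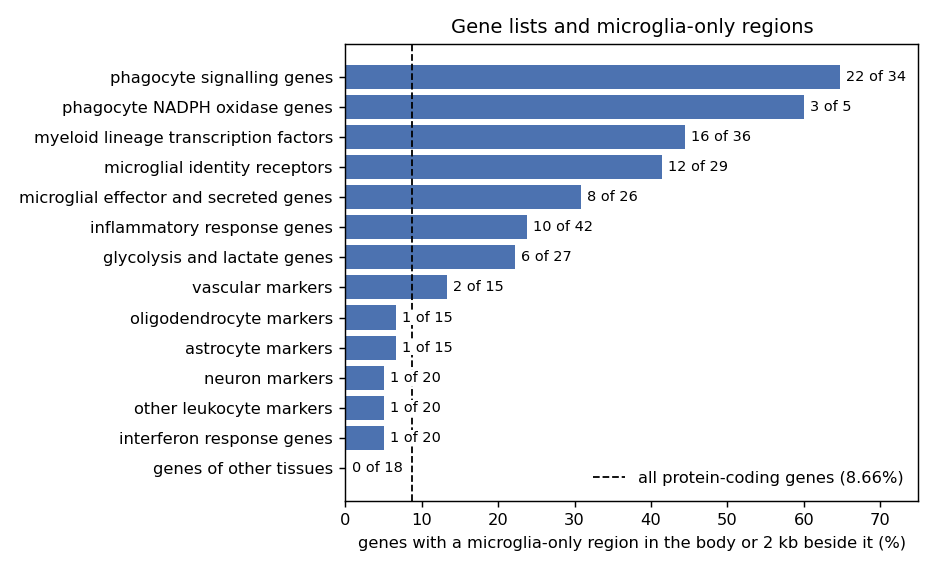
Share of the genes of each list (percent, horizontal axis) that have a microglia-only region in the gene body or within 2 kb of it, with the number of genes beside each bar. The dashed line marks all protein-coding genes at 8.66%; phagocyte signalling genes reach 64.7% and genes of other tissues 0%.

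Genes that carry signals from phagocytic and immune receptors into the cell had a microglia-only region at 22 of 34 (64.7%), with a median gene length of 26.4 kb, and at the gene ends of 13 of 34. A further 7 genes, among them the Src-family kinases Lyn and Fgr, had regions of all 4 microglia lists that total cells shared. The remaining 5, Dok2, Dok3, Fcgr3, Coro1a and Abi3, had peaks in 1 to 3 microglia lists. Members lay at several steps of the cascade: receptors (Fcgr1, Fcgr2b, Fcgr4), signalling adaptors (Fcer1g, Hcst, Lcp2, Blnk), kinases (Syk, Btk), lipid enzymes (Plcg2, Inpp5d, Pik3cg) and actin regulators (Was, Vav1, Rac2, Lcp1).

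Pik3ap1, an adaptor that links Toll-like and B cell receptors to PI3 kinase, had 6 microglia-only regions. The highest, on chromosome 19 from 41331474 to 41333086 in the gene body, stood at percentiles of 85.7 and 97.0 in 5XFAD and 88.1 and 91.2 in WT microglia. The 4 values of that region overlapped between genotypes. Plcg2, a phospholipase downstream of TREM2 whose human gene carries Alzheimer-associated variants, had 5 regions in its first portion. The highest of these, on chromosome 8 from 117519273 to 117520232, stood at 64.1 and 84.5 in 5XFAD and 56.7 and 77.2 in WT microglia. Inpp5d, which encodes the inositol phosphatase SHIP1 and also lies at a human Alzheimer risk locus, had 4 regions. The highest, on chromosome 1 from 87657518 to 87658609, stood at 81.9 and 94.6 in 5XFAD and 84.7 and 88.3 in WT microglia.

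**Figure D4:**
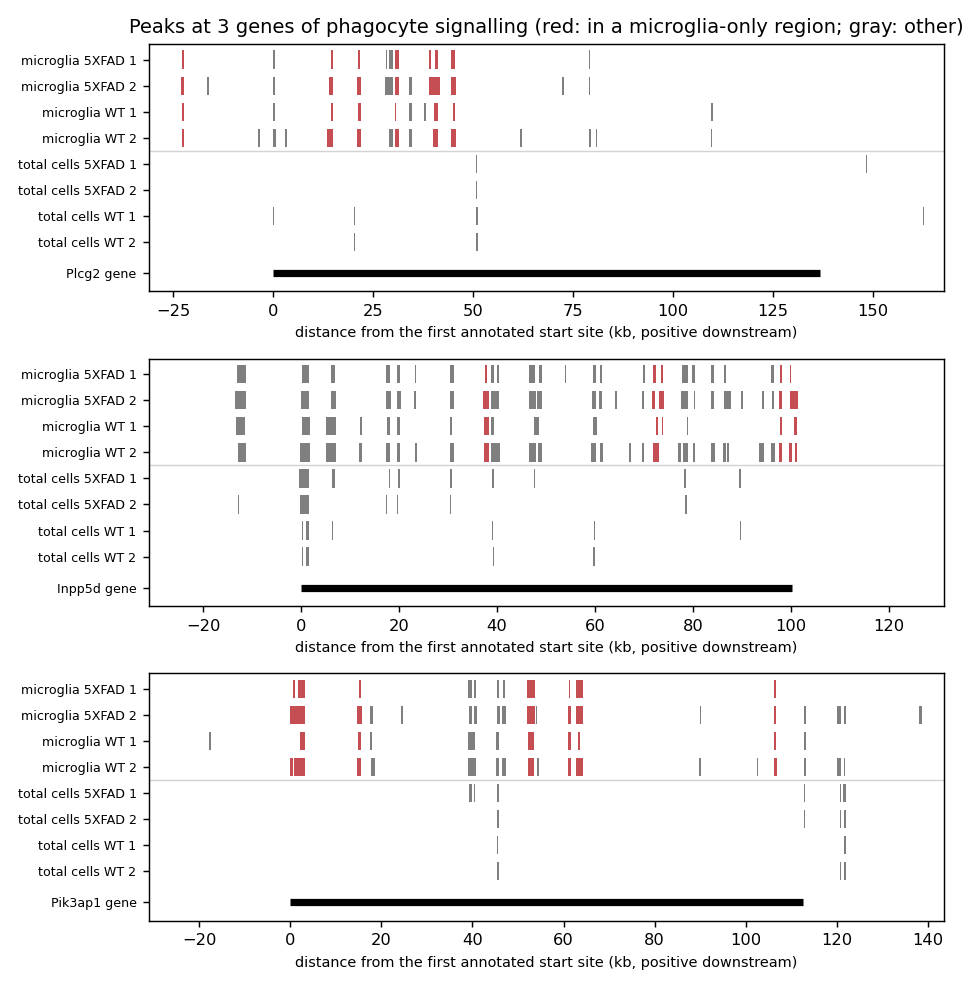
Deposited peaks at Plcg2, Inpp5d and Pik3ap1, placed by distance from the first annotated start (kb, horizontal axis, positive downstream), with 1 row per library and the gene drawn as a black bar. Red peaks belong to microglia-only regions (5 at Plcg2 in its body and 1 upstream of it, 4 at Inpp5d, 6 at Pik3ap1) and gray peaks to other regions, and no total cell row holds a red peak.

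The start-site peaks of these genes differed from one another. At Inpp5d the start was marked in all 8 libraries, and its microglia-only regions lay further in. At Pik3ap1 a microglia-only region of 3325 bp reached close to the start, with percentiles of 67.9 and 82.0 in 5XFAD and 34.7 and 68.1 in WT microglia. Only 5XFAD 2 and WT 2 had a peak beginning 12 bp from that start. The nearest peaks of 5XFAD 1 and WT 1 in this region began 535 and 2181 bp downstream. All 4 microglia libraries had a peak over the stretch from 2181 to 3130 bp downstream. Where a library had more than 1 peak in the region, which of them gave its percentile is not told here. At Plcg2 the start was held by all 4 microglia lists and by 1 total cell list. Ptprc had a strong region at its start, with percentiles of 95.4 and 88.9 in 5XFAD and 95.6 and 91.5 in WT microglia. That of Was stood at 75.9 and 93.1 in 5XFAD and at 80.6 and 90.5 in WT microglia. Vav1, an exchange factor for Rac GTPases, had an intragenic region at 95.6 and 89.6 in 5XFAD, against 71.4 and 84.7 in WT microglia.

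The NADPH oxidase of phagocytes makes superoxide when cytosolic subunits join a membrane-bound core. Ncf1 and Ncf4, genes of cytosolic subunits, had microglia-only regions, whereas Cyba, of the membrane core, had a shared region of all 4 microglia lists, and Cybb, of the same core, had peaks in 1 to 3 microglia lists. The higher region of Ncf1 stood at 86.9 and 91.8 in 5XFAD, against 96.7 and 94.5 in WT microglia. The region of Ncf4 stood at 40.9 and 50.2 in 5XFAD, against 79.6 and 80 in WT microglia. The 5XFAD values were below both WT values at those regions of Ncf1 and Ncf4. Ncf1 is known to have near-identical copies in the human genome, and how reads were placed in the mouse is not stated.

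Lineage transcription factors had microglia-only regions at 16 of 36 genes (44.4%), with a median gene length of 16.3 kb. With the upper 50% of scores the count was 10 of 36 (27.8%), against 5.38% of all genes. At gene ends the count was 4 of 36 (11.1%), against 3.23% of all genes. Spi1, which encodes PU.1, the factor that myeloid fate requires, had the strongest region of any list gene. It lay in the gene body on chromosome 2 from 91096284 to 91099228, with percentiles of 95.4 and 96.2 in 5XFAD and 93.5 and 95.0 in WT microglia, a mean of 95.0 ± 1.14 (SD, n = 4). A second region in the same gene, from 91086116 to 91088281, stood at 78.3 and 83.0 in 5XFAD and 81.0 and 96.6 in WT microglia. The first was also among the 10 widest members, covering 2663 and 2781 bp in 5XFAD, against 2021 and 2154 bp in WT microglia.

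Smad3, a transducer of TGF-beta signals that maintain microglial identity, had 6 regions, with mean percentiles between 19.1 and 60.5. Mef2a, a MADS-box factor of the microglial enhancer repertoire, had 4. Etv6, an ETS repressor of blood cells, had 3, the highest at 90.1 and 90.9 in 5XFAD, against 64.5 and 79.0 in WT microglia. Sall1, a zinc finger factor that among brain cells of the adult is typical of microglia, had a region beside its start at 50.6 and 79.5 in 5XFAD and 25 and 66.1 in WT microglia. Irf8, Runx1, Mef2c, Fli1, Ikzf1, Elf1, Bhlhe41, Nfe2l2, Mitf and Lmo2 were also among the factors with a region. Cebpa, Irf5, Fos, Jun and 4 others had shared regions of all 4 microglia lists, and Tfec and Gfi1 had no peak in any list.

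Surface receptors that mark microglia had a microglia-only region at 12 of 29 genes (41.4%, median gene length 15.1 kb). P2ry6, the UDP receptor that triggers phagocytosis, had a region in its body at 89.3 and 95.0 in 5XFAD and 95.4 and 94.8 in WT microglia. Cd300a, an inhibitory receptor for phosphatidylserine, had one over its start at 76.2 and 88.4 in 5XFAD and 77.6 and 81.5 in WT microglia. Trem2, the lipid-sensing receptor central to the microglial response to plaques, had a weak one at 23.8 and 47.7 in 5XFAD and 28.0 and 22.3 in WT microglia. Itgam encodes CD11b, the antigen used for the beads, and its region stood at 81.2 and 81.6 in 5XFAD, against 63.8 and 41.7 in WT microglia. Csf1r, P2ry13, Siglech, Itgb2, Itgb5, Selplg, Cd300lf and Clec4a2 completed the 12. P2ry12, Cx3cr1, Tyrobp and 8 other markers had regions of all 4 microglia lists that total cells shared, Tmem119, Gpr34, Gpr84, Mrc1 and Clec7a had peaks in 1 to 3 microglia lists, and Ms4a7 had none.

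**Figure D5:**
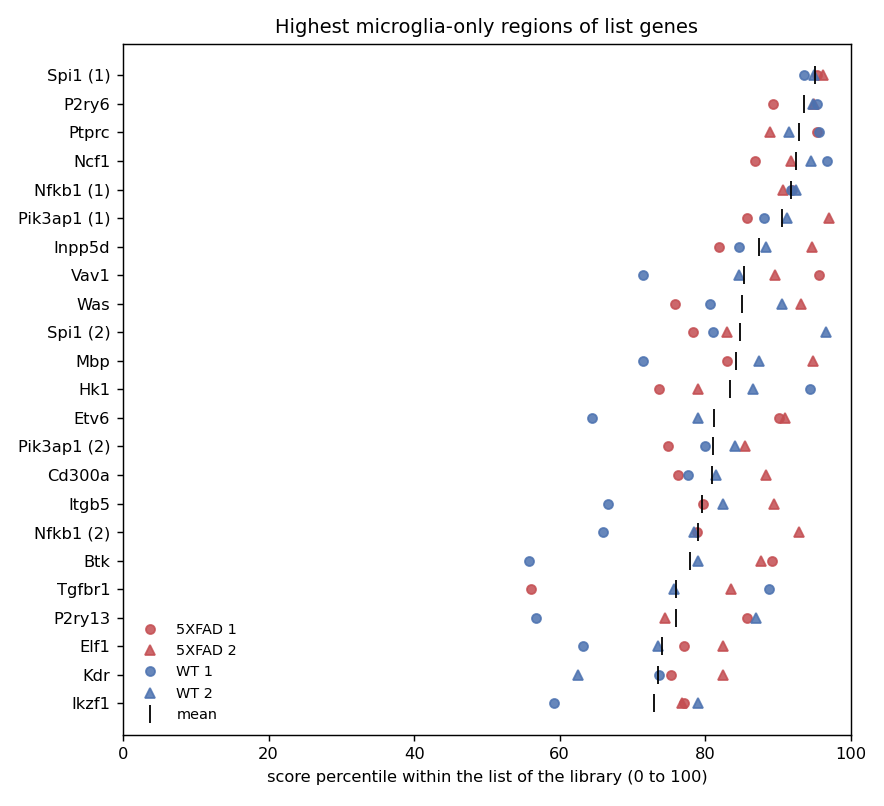
Score percentile within its own list (horizontal axis, 0 to 100) of 23 of the 25 microglia-only regions of list genes with the highest mean (the other 2 are not shown), in 5XFAD microglia (red, circle for replicate 1, triangle for 2) and WT microglia (blue). The black mark is the mean of the 4 libraries, and a number after a gene name tells apart regions of the same gene. At Spi1 (1) the 4 values lie between 93.5 and 96.2, whereas at Btk WT 1 lies at 55.8 and the 5XFAD libraries at 89.1 and 87.6.

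Genes of microglial effectors and secreted products had a region at 8 of 26 (30.8%, median length 12.4 kb). A region that spans the start of C1qb and reaches the end window of C1qc, both chains of the complement initiator C1q, stood at 83.0 and 79.4 in 5XFAD, against 1.2 and 54.6 in WT microglia. The region at the start of Ctss stood at 51.3 and 61.9 in 5XFAD, against 66.7 and 76.9 in WT microglia. C3ar1, Lgmn, Aif1 and Tgfbr1 also had regions. Apoe, Lpl, Ctsb and 5 others had shared regions of all 4 microglia lists, and C3 and Spp1 had no peak in any list.

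Inflammatory genes had microglia-only regions at 10 of 42 (23.8%, median length 13 kb), 9 of them at gene ends, and shared regions of all 4 microglia lists at 23 of 42. Nfkb1, the DNA-binding subunit of NF-kB, had 2, the higher at 91.9 and 90.7 in 5XFAD and 91.8 and 92.5 in WT microglia. Nlrp3, the sensor of the inflammasome that activates caspase-1, had a region over a listed start at 58.0 and 87.6 in 5XFAD and 54.1 and 83.2 in WT microglia. Casp1, Il1a, Il10ra, Tlr1, Tlr7, Ccl6 and Ptgs1 were also among the 10. Il1b, Tlr2, Tlr4 and Myd88 were among those shared with total cells. Without total cells 5XFAD 1, inflammatory genes with a microglia-only region numbered 18 of 42 (42.9%), against 12.3% of all genes. Among interferon response genes, Usp18 had a member, 1 of 20 (5.00%), near the 8.66% of all genes, and 15 of 20, such as Stat2, Ifit3 and Isg15, had shared regions. Without total cells 5XFAD 1 the interferon count was 3 of 20 (15%), above the 12.3% of all genes.

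Glycolysis produces the lactate from which the mark derives, and its genes had a microglia-only region at 6 of 27 (22.2%, median length 22.8 kb). They were the hexokinases Hk1 and Hk2, the phosphofructokinase regulators Pfkfb3 and Pfkfb4, the mutase Pgam1 and the enolase Eno2. With the upper 50% of scores the count was 3 of 27 (11.1%), against 5.38% of all genes. Another 13, including Pkm, Hif1a, Slc2a1 and the lactate transporters Slc16a1 and Slc16a3, had shared regions of all 4 microglia lists, and Ldha had peaks in 1 to 3. Hk2 had 3 members that differed in direction. The one nearest its far end, on chromosome 6 from 82725230 to 82725661, stood at 21.7 and 15.7 in 5XFAD, against 57.5 and 55.9 in WT microglia. The one over its start stood at 47.6 and 48.3 in 5XFAD, against 34.7 and 32.5 in WT microglia. The region of Hk1, in the gene body, stood at 73.6 and 79.0 in 5XFAD, against 94.4 and 86.5 in WT microglia.

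Markers of other cells were examined in the same way, beside the 8.66% of all genes. Members lay at 1 of 20 neuron markers (Dlg4), 1 of 15 astrocyte markers (Slc1a3), 1 of 15 oligodendrocyte markers (Mbp), 2 of 15 vascular markers (13.3%; Cdh5, Kdr), 1 of 20 markers of other leukocytes (Flt3) and 0 of 18 genes of other tissues. Counts of 1 or 2 are near what the share of all genes gives for lists of this length. Neuron markers were above that share under 0 of 16 alternatives. Markers of other leukocytes were above it under 1, astrocyte markers under 2, oligodendrocyte markers under 3 and vascular markers under 14 of 16. Oligodendrocyte markers had members at 3 of 15 (20%, against 12.3% of all genes) without total cells 5XFAD 1, and at 2 of 15 (13.3%, against 5.38%) with the upper 50% of scores. Markers of other leukocytes had members at 2 of 20 (10%, against 6.98%) with equally many peaks per list. Of the markers of other leukocytes, 12 of 20 had no peak in any of the 8 lists, among them the T cell gene Cd3e, the neutrophil genes Ly6g and S100a9 and the monocyte genes Ly6c2 and Ccr2. Over all protein-coding genes, 7442 of 21887 had no peak. Beside Flt3, 1 marker of other leukocytes had a shared region of all 4 microglia lists. Another 4 had peaks in 1 to 3 microglia lists and 2 in total cells only. Whether such cells were in the preparation cannot be told from these counts. The region at Mbp, which encodes a myelin protein, was strong, at 83.0 and 94.8 in 5XFAD and 71.4 and 87.4 in WT microglia. Both regions of Flt3, a receptor of dendritic and progenitor cells, were higher in 5XFAD, at 79.4 and 71.1 against 37.3 and 53.0 in WT microglia for the first and 84.7 and 71.1 against 4.7 and 30.4 for the second. The region of Cdh5, the endothelial cadherin, stood at 79.4 and 84.5 in 5XFAD, against 42.1 and 63.6 in WT microglia. The part of other cells in these values was not tested.

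Ranked without regard to any list, the strongest members were, like members as a whole, mostly intragenic or intergenic. Members ran from 5.22 to 98.0 in mean percentile over the 4 microglia libraries, 99 were above 80 in every microglia library, and 17 were above 90. The first lay in Arl10, a gene of an ARF-like GTPase, at 97.8 and 98.2 in 5XFAD and 97.7 and 98.1 in WT microglia, with a mean of 98.0 ± 0.244 (SD, n = 4). Ehd4, an ATPase of endocytic recycling, was next at 97.2 and 99.2 in 5XFAD and 96.7 and 95.9 in WT microglia. The following 2 lay outside genes, 7238 bp from Sdcbp and 15119 bp from 1700017B05Rik. Marchf10, Clip2, Vps8, Ccdc88b, the DNA methyltransferase gene Dnmt3a, Col25a1, Edem2 and Glrp1 held others of the highest 20 beside Spi1, Sirpa and P2ry6, and the regions outside genes had Gm21818, E230025N22Rik, Depdc5 and Nek7 as their nearest genes. Of the 100 highest, 10 were at gene ends, 55 elsewhere in bodies and 35 away from genes. Over all members those shares were 18.2%, 54.3% and 27.5%.

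Width gave a different order. The widest region by mean covered bases lay in Rap1gap2, a GTPase-activating gene for Rap1, covering 2616 and 4221 bp in 5XFAD and 1974 and 4140 bp in WT microglia. Igf1r, the receptor of insulin-like growth factor 1, followed with 2651 and 4337 bp in 5XFAD and 1850 and 3071 bp in WT microglia. Pou2f2, which encodes the octamer factor OCT2 of B cells and myeloid cells, had an even region of 2727 and 2786 bp in 5XFAD and 2841 bp in both WT libraries. Foxn3, F9, Soga1, Spi1, Med12l with P2ry13, Sdccag8 and a region 48677 bp from Lrrc28 were the other widest 10.

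Genes with many members were long, with an exception. Nav3, a neuron navigator gene of 774 kb, had 11, Zmiz1 had 8, and Cadm1, Fat3, Igf1r, Rbm47 and Snx29 had 7 each, and 10 further genes had 6. Nav3 also had 73 merged regions in all, 25 with a total cell peak. Sirpa, the myeloid receptor for the CD47 signal that restrains phagocytosis, is 41.2 kb long and had 6, or 14.6 per 100 kb, against 1.42 per 100 kb in Nav3. None of the 14 merged regions at Sirpa had a total cell peak. Its strongest stood at 98.2 and 96.9 in 5XFAD, against 89.0 and 93.9 in WT microglia. Tgfbr2, the TGF-beta receptor chain that signals through Smad3, had 6 in 87.7 kb, the highest at a mean percentile of 83.3, and 13 of its 23 regions had a total cell peak. Apbb1ip, an adaptor between Rap1 and integrins, Tbxas1, thromboxane synthase, and Arhgap22, Arid1b, Foxn3, Slc9a9, Pik3ap1 and Smad3 were the others with 6.

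Runs of neighbouring members were counted, for members only, so whether they cluster more or less than other regions was not tested. With gaps of up to 50 kb allowed, 1683 members (50.9%) stood alone, and 184 fell in 32 runs of at least 5. The longest run had 8 members over 84.3 kb at Sirpa. Runs of 7 lay at Tgfbr2, Rbm47 and Arhgap22 and across Akap7 and Epb41l2 and across Aunip, Mtfr1l and Man1c1. The gap was set after the regions had been seen.

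The 5XFAD and WT microglia were then compared within the members. The median percentile was 50.6 and 64.6 in 5XFAD, against 42.1 and 59.1 in WT microglia. The means were 57.6 ± 9.92 in 5XFAD and 50.6 ± 12 in WT (SD, n = 2 each), a difference of 6.94 with p = 0.667 in an exact two-sided permutation test, in which 2 against 2 cannot go below 0.33. With equally many peaks per list the difference was −2.26 (exact permutation p = 0.33), and without 5XFAD 2 it was −0.414, so its direction was not fixed. The median covered width was 681 and 961 bp in 5XFAD, against 569 and 795 bp in WT microglia, a difference of 139 bp with exact permutation p = 0.667, and of −3 bp without 5XFAD 2. In both measures the groups overlapped, and libraries of a genotype differed by more than the genotypes did. The order of the 4 libraries in each followed the length of their lists: 5XFAD 2 was highest, then WT 2, then 5XFAD 1, and WT 1 was lowest.

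Region by region, both 5XFAD libraries exceeded both WT libraries in percentile at 972 members (29.4%) and fell below them at 477 (14.4%). Among the other 13425 regions of all 4 microglia lists, the same was seen at 33.5% and 13.6%, so members were close to that background. For width the counts were 996 (30.1%, background 32.3%) and 223 (6.74%, background 5.75%). When each library was ranked among the members alone, which removes differences in list length, the counts were 840 (25.4%, background 26.3%) and 842 (25.5%, background 26.6%), so that higher and lower values were nearly equal in number, as ranking within 1 set favours by construction. That alternative was chosen after seeing the data. The ranking of members was nonetheless more alike within a genotype, with a Spearman correlation of 0.728 between the 5XFAD libraries and 0.607 between the WT libraries, against 0.397 to 0.511 between genotypes. These describe 3307 regions shared by all 4 libraries and have no p. In the other 13425 regions the correlations were 0.868 and 0.803 within genotypes and 0.656 to 0.723 between them.

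Among the 138 members at list genes, both 5XFAD values were above both WT values at 40 and below them at 16, and at 33 and 36 when ranked among members. Over all members those shares were 29.4% and 14.4%, and 25.4% and 25.5% by rank. At phagocyte signalling genes 17 of 44 regions were higher in 5XFAD and 3 lower, or 14 and 7 by rank among members. At effector genes 1 of 10 was higher and 4 were lower, or 1 and 6 by rank. At NADPH oxidase genes 0 of 5 were higher and 2 were lower, or 0 and 3 by rank. At lineage factors 7 of 32 were higher and 3 lower, or 6 and 8 by rank. At identity receptors 2 of 14 were higher and 1 was lower, or 2 and 5 by rank. At inflammatory genes 4 of 17 were higher and 1 was lower, or 4 and 4 by rank. At glycolysis genes 4 of 8 were higher and 2 lower, or 2 and 3 by rank. No test of these counts, or of a difference between lists, was made, and with 2 libraries a genotype no single region could pass one.

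Syk, the kinase that couples Fc receptors and TREM2 to the cell interior, was higher in 5XFAD at all 3 of its members, on both scales. The first, near a listed start, stood at 54.8 and 61.5 in 5XFAD, against 8.0 and 18.3 in WT microglia, the second at 62.0 and 68.0 against 25 and 43.8, and the third at 43.4 and 50.2 against 10.2 and 9.3. Fcgr1 and Fcgr4, activating receptors for IgG, stood at 51.3 and 55.9 in 5XFAD, against 0.7 and 29.5 in WT microglia, and at 59.3 and 75.9 in 5XFAD, against 8.0 and 43.8 in WT microglia. Hcst, which encodes the adaptor DAP10, stood at 87.7 and 81.8 in 5XFAD, against 37.3 and 57.2 in WT microglia. Pik3ap1 was mixed: its region from 41320817 to 41322449 stood at 71.0 and 82.9 in 5XFAD, against 12.5 and 65.2 in WT microglia, while that from 41323507 to 41324162 stood at 8.0 and 30.6 in 5XFAD, against 79.9 and 64.2 in WT microglia. These neighbours are within 2 kb of each other, so the genotypes did not move together even within this gene. Aif1, which encodes the microglial stain IBA1, had a region at 61.5 and 62.6 in 5XFAD, against 67.4 and 71.8 in WT microglia.

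The members with the widest gap between genotypes lay in or near genes of varied function. Higher in 5XFAD were a region 16659 bp from Ep300, a histone acetyltransferase gene, at 90.3 and 70.4 in 5XFAD, against 11.3 and 8.3 in WT microglia, and a region in Specc1 at 87.7 and 92.3 in 5XFAD, against 3.0 and 40.8 in WT microglia. Gpr132, a receptor for oxidised lipids and lactate in macrophages, stood at 80.5 and 91.8 in 5XFAD, against 8.0 and 30.4 in WT microglia. A region 11898 bp from Tlr2, the receptor for bacterial lipoproteins, stood at 85.1 and 89.4 in 5XFAD, against 20.7 and 23.4 in WT microglia, and Hps6, of lysosome-related organelle biogenesis, stood at 64.1 and 73.9, against 1.2 and 9.3 in WT microglia.

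Lower in 5XFAD were a region 82958 bp from Nubpl at 6.2 and 10.6 in 5XFAD, against 68.7 and 84.7 in WT microglia, and regions in Erlec1 at 10.9 and 21.9 in 5XFAD, against 87.6 and 72.9 in WT microglia, and in the thyroid hormone receptor gene Thrb at 9.8 and 38.4 in 5XFAD, against 88.2 and 82.6 in WT microglia. A region 35734 bp from Atg5, an autophagy gene, stood at 16.0 and 31.9 in 5XFAD, against 92.5 and 77.2 in WT microglia. A region 101033 bp from Zfp36l2, a gene of an mRNA-decay factor, stood at 7.1 and 21.9 in 5XFAD, against 70.9 and 68.5 in WT microglia. These 10 kept their direction when ranked among members. They were picked for this difference, so the values describe them and give no test.

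The few promoters under members had less CpG than those under shared regions. Members touched 186 listed promoter windows of 169 genes, with a median GC content of 55.5% and a median of 11 CpG, against 60.7% and 21 for the 3097 promoters under regions of all 8 lists. All 21263 listed promoters had medians of 56.3% and 13. The letters GAGGAAGT, searched on both strands for PU.1, were in 6.45% of promoters under members, 3.16% of those under regions of all 8 lists and 3.13% of all promoters. TGTGGT, for RUNX factors, was in 22.6%, 13.3% and 15.0%. TGANTCA, for AP-1, was in 10.2%, 4.23% and 6.99%. GAAANNGAA for IRF factors was in 9.14%, 7.59% and 8.15%, TTGCNNAA for C/EBP factors in 8.06%, 8.07% and 10.2%, CTANNNATA for MEF2 in 7.53%, 4.0% and 6.56%, CAGATG for E-box factors in 12.4%, 10.7% and 14.6%, and CCANNAGGG for CTCF in 4.30%, 6.23% and 6.04%. The 11692 promoters under no region had a median of 5 CpG. Their shares were 2.83% for PU.1, 16.7% for RUNX, 8.78% for AP-1 and 8.89% for IRF letters. They were 11.9% for C/EBP, 8.60% for MEF2, 17.5% for E-box and 5.69% for CTCF letters. Among the 186 promoters under members, 12 held PU.1 letters, 42 RUNX letters and 19 AP-1 letters, and these counts were not tested.

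At list genes, 27 promoter windows of 24 genes lay under members, and those of Ctss and Cd300lf, printed above, were the 2 with PU.1 letters. The remaining 25 windows did not hold these letters. They lay under weaker members, as at Eno2 and Fcgr1, as well as under stronger ones, as at Ptprc, Was and Cd300a.

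Of 1005 annotated miRNA hairpins, 4 were touched by a microglia-only region, 19 by regions of all 8 lists and 113 by any merged region. Members were 4.51% of all merged regions, so a count of 4 does not set them apart. The strongest member of all, in Arl10, covered the hairpin of mmu-miR-1271 on chromosome 13 from 54578139 to 54578221, plus strand. Its 5p arm is shown with the seed, bases 2 to 8, in capitals, from RefSeq on GRCm38.p6.
mmu-miR-1271-5p: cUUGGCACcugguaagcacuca
mmu-miR-1953, mmu-miR-5123 and mmu-miR-7091 lay under the other 3 members, with mean percentiles of 42.5, 59.4 and 44.5. The hairpins were matched after the regions had been seen, and the peak lists do not measure the miRNAs.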

How the data were processed

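The 8 CUT&Tag libraries were grouped by their titles. The submitters' processing notes name fastp 0.19.6, Bowtie2, deepTools and the build GRCm38 (mm10). Which program called the peaks, and against which control, is not stated. Each peak has a whole-number score that the authors deposited without a unit; it was used only as a percentile within its own list. Starts were taken as counted from 0 and are printed counted from 1. Depth is unknown.

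Merging, overlap (at least 1 bp) and tests were done in Python 3.11.15 with pandas 2.3.3, numpy 2.4.6 and scipy 1.17.1. The code recovered planted regions in simulated data where background peaks were kept away from them. That checks the code and not its behaviour in dense lists. Genes came from a RefSeq table of GRCm38.p6 without strand, so windows of 2 kb on both sides of both gene ends replaced the planned start-site windows, and exons and introns were not used. Start sites came from the RefSeq promoter table (17492 genes; part of the genome is not covered). All 321 distinct genes of 14 lists matched. Members and lists were chosen with earlier results of these data known. Named were list genes, the 20 highest and 10 widest members, the genes with most members (17, with ties at the 10 asked for), and 5 members per direction with the largest genotype difference. Tests were exact permutation tests over libraries, and replicate numbers were not taken as pairs, since no label ties them. Alternatives changed the score cut, list length, merging, windows and libraries. Promoter windows, distances to starts, runs, hairpins, left-out lists and the test within libraries were added after values were seen. Results for some genes are not reported here.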

Additional observations from a re-analysis of the deposited data

How the results depend on the processing

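Keeping the upper 50% of scores gave 1969 regions, 16.7% at gene ends and 1178 genes, and taking equally many peaks per list gave 16.7% at gene ends. Windows of 1 kb and 5 kb put 12.9% and 29.2% at gene ends, 24.4% lay more than 5 kb from a gene, and gene ends alone gave 706 genes. Without 1 library there were 3457 to 5584 regions (5584 without microglia WT 1 and 5175 without total cells 5XFAD 1), 1952 to 2896 genes (2896 without microglia WT 1), 18.0% to 19.0% at gene ends and 26.8% to 27.6% away from genes. The list shares of identity, effector, signalling, oxidase, lineage factor, inflammatory and glycolysis genes were above that of all genes under 16 of 16 alternatives, which reuse the same peaks. All genes include 7442 of 21887 with no peak. Of all genes, 1896 had a member and 6370 had a shared region of all 4 microglia lists but no member. Those counts were 10 and 23 for inflammatory and 6 and 13 for glycolysis genes, whose shares were not told apart from being marked at all. The genotype difference in median percentile turned to −2.26 (5XFAD minus WT, exact permutation p = 0.33) with equally many peaks per list, and ran from −0.414 (without 5XFAD 2) to 15.3 without 1 library; that in width ran from −3 bp (without 5XFAD 2) to 246 bp. The cause of these changes was not tested.

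With the replicate number as a block, the differences of 6.94 in percentile and 139 bp in width had exact permutation p = 0.5 each, the smallest the block allows; no label says that the numbers pair the libraries. Read depth is unknown, so an absent peak does not show an absent mark.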
